A study of Homo sapiens with 6 samples.

Results

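*ACKR3* encodes atypical chemokine receptor 3, formerly CXCR7, and was described here as a single gene in human breast cancer cells recovered from mouse brains. It is 1 of the 1161 genes in the deposited table, and was taken from that table by its symbol. The gene was selected on its read counts in dormant against proliferating cells, so its levels in dormant and proliferating cells are given as a description with no test. The cells were MDA-MB-231, an established triple negative breast cancer cell line, tagged with green fluorescent protein (GFP), labelled with the membrane dye CellVue Claret (CV) and injected into the internal carotid artery of female C.B-17 SCID mice aged 6 to 8 weeks, a strain without B and T cells that keeps its other immune and brain cells. At day 28 the cells that had kept the dye (GFP+CV+) were sorted as dormant, called cell cycle-inactive in the labels, and the cells that had lost it (GFP+CV-) as proliferating. All groups thus share the same cell line, GFP tag, dye, host strain and day. Each population had 3 libraries, each from a pool of 9 or 10 mice, and libraries with the same replicate number came from the same experiment. They describe a single cell line and pooled animals, not single mice.

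Chemokine receptors are seven-transmembrane receptors that steer cells along gradients of small secreted proteins, the chemokines. ACKR3 is atypical in that it does not signal through G proteins in the usual way: it recruits beta-arrestin, is internalised and carries bound chemokine to degradation. Its ligands CXCL12 and CXCL11 are shared with the signalling receptors CXCR4 and CXCR3, so that a cell with ACKR3 can lower the amount of CXCL12 around it. ACKR3 also takes up opioid peptides and adrenomedullin and binds MIF, and in the brain it is known from endothelial cells, astrocytes and neurons.

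In GENCODE release 44 on GRCh38, *ACKR3* (ENSG00000144476.5 in the files) lies on the plus strand of chromosome 2 from 236567787 to 236582354. It has 2 annotated transcripts, each with 2 exons, and the whole coding sequence of the longer transcript is in exon 2, from the start codon at 236580466 to the stop codon that ends at 236581554. Its exons cover 2070 bases together. There were 0 other annotated genes overlapping it, so its reads are not shared with an overlapping or antisense gene of that annotation. The counts of reads in the listed genes summed to between 7978657 and 17928784 per library. Since genes outside the table are missing from these sums, the depth of the libraries is unknown. Keratins of the cell line were abundant in every library, with *KRT8*, a keratin of simple epithelia, at a normalized read count between 62447 in dormant replicate 3 and 159620 in proliferating replicate 1.

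*ACKR3* was found in all 3 dormant libraries and was at or near 0 in all 3 proliferating libraries. Its estimated counts were 377, 482 and 62 in dormant replicates 1, 2 and 3, and 0, 0 and 2 in proliferating replicates 1, 2 and 3. As normalized read counts, which are counts divided by the size factor of the library, these were 358, 463 and 85.6 in dormant cells and 0, 0 and 1.63 in proliferating cells. The populations did not overlap, as was the case for 99.2% of the listed genes (49% with dormant above and 50.2% with dormant below), and the lowest dormant library stood far above the highest proliferating library. Dormant cells had a mean of 302 ± 195 (SD, n = 3), and proliferating cells of 0.542 ± 0.938 (SD, n = 3). The 95% Poisson intervals of the dormant libraries ran from 323 to 397, from 422 to 506 and from 65.7 to 110 normalized counts. None of the 3 overlapped another with every read counted singly. In units of 2 reads, used for the ratio below, the intervals would be wider, and those of replicates 1 and 2 may overlap. Such intervals were not computed. The Poisson intervals of proliferating replicates 1 and 2, with counts of 0, ended at 2.67 and 3.98, and a floor of 3 counts corresponds to 2.17 and 3.23 normalized counts there. The interval of proliferating replicate 3, from 0.197 to 5.87, overlapped both, so no order among the proliferating libraries was detectable at this depth. Reads amplified by PCR are not independent molecules, so all intervals and limits cover counting error only.

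**Figure D1:**
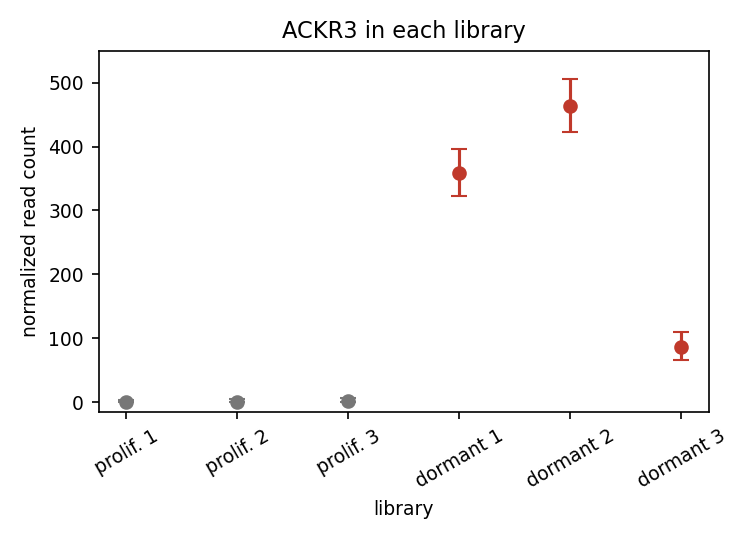
Normalized read count of *ACKR3* (vertical axis) in each of the 6 libraries (horizontal axis), grey for proliferating and red for dormant cells, with 95% Poisson intervals of the counts as bars. The dormant libraries lie at 358, 463 and 85.6, and the proliferating libraries at 0, 0 and 1.63.

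The summed counts of the dormant libraries, 921, over the 2 counts of the proliferating libraries gave a ratio of 578 per unit of size factor, with an exact 95% counting interval from 160 to 4782. The width of the interval comes from the 2 counts in proliferating replicate 3. Between 64.2% and 87.9% of the whole-number counts from 1 to 50 in a library were even, so the ratio was also taken with counts in units of 2 reads. With all counts halved the ratio was 579 with an interval from 103 to 22912. Without proliferating replicate 1 the ratio was 353. Without proliferating replicate 3 the dormant level was 251 times a floor of 3 counts over the group, and the exact 95% lower limit of the ratio was 204. Within the same experiment, the dormant level of *ACKR3* was 165 times a floor of 3 counts in the proliferating library in replicate 1 and 143 times in replicate 2. The exact 95% lower limits of these 2 ratios were 133 and 116. In replicate 3 the ratio was 52.7, with a counting interval from 14.0 to 445. The difference of the mean log2(normalized count + 1) was 7.46. Since whole populations were sequenced, more cells with *ACKR3* and more *ACKR3* RNA per cell cannot be told apart.

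By its log2 fold change in edgeR's fit, *ACKR3* stood at rank 6 of the 1161 genes, a place that follows from its choice. Per length, its level was 146 normalized counts per kilobase of exon in dormant cells and 0.262 in proliferating cells.

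Within the dormant population the values of *ACKR3*, which are among those it was selected on, are likewise given as a description with no test. *ACKR3* was lowest in dormant replicate 3, with 0.209 times the mean of replicates 1 and 2. Most other genes that were higher in dormant cells went the other way. Their median ratio was 1.39, with quartiles of 1.05 and 1.94, and 378 of the 576 were highest in dormant replicate 3. Of the 576 genes, 67 (11.6%) were lowest in replicate 3, and 25 had the same order as *ACKR3*, with replicate 2 above replicate 1 and replicate 1 above replicate 3. A ratio as low as that of *ACKR3* or lower was found in 4 genes, *ACKR3* included (0.694%). The others were *CYTIP*, with a ratio of 0.0158, *DCN*, with 0.0363, and *LRRFIP1P1*, with 0.161, and just above *ACKR3* was *TCF4*, with 0.246. *CYTIP* encodes a cytohesin-binding protein of leukocytes and *DCN* the small proteoglycan decorin. The coefficient of variation of *ACKR3* over the dormant libraries was 64.4%. Among the 76 listed genes that were higher in dormant cells and whose dormant mean was within 2-fold of that of *ACKR3*, itself included, the median was 52.9%, and 30 had a larger value, so a spread of this size was common at this level. With libraries scaled by TMM or by their listed totals, the ratio of replicate 3 to the others was 0.190 and 0.193 for *ACKR3*.

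**Figure D2:**
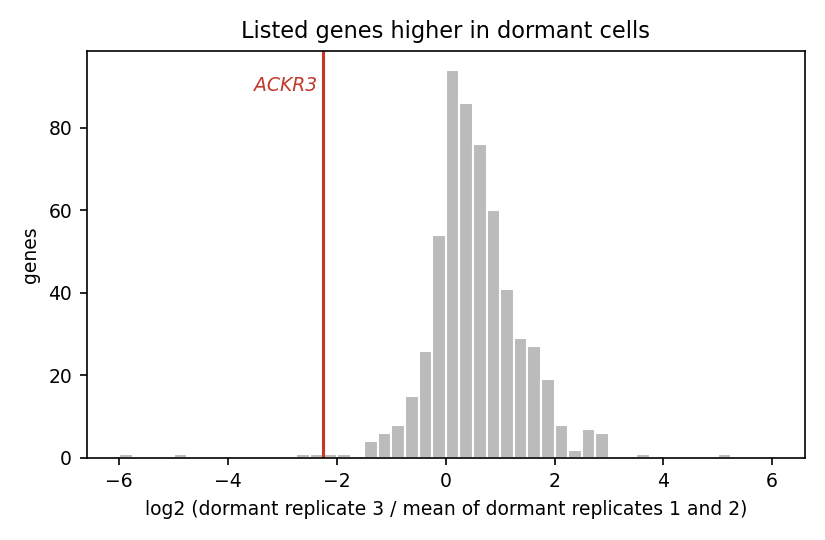
Histogram of log2 of the ratio of dormant replicate 3 to the mean of dormant replicates 1 and 2 (horizontal axis) for the 576 listed genes that were higher in dormant cells, with the number of genes on the vertical axis. The red line marks *ACKR3*, in the left tail with a linear ratio of 0.209, against a median of 1.39.

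The genes whose pattern over the 6 libraries was most like that of *ACKR3* were found by the root mean square difference of log2(normalized count + 1), each gene centred on its own mean. The nearest was the small nucleolar RNA gene *RF00425*, with a difference of 0.878, followed by *DCN* with 1.02, *BGN* with 1.08, *APOE* with 1.09 and *CD4* with 1.21. *BGN* encodes the proteoglycan biglycan, *APOE* the lipid carrier apolipoprotein E, and *CD4* a receptor of T cells and macrophages. The median difference was 3.12 over all genes that were higher in dormant cells. This measure uses the values on which *ACKR3* was selected, and the gap between the populations weighs most in it. The nearest genes are thus given as a description, and a shared regulation was not tested. The normalized read counts of *RF00425* were 198, 132 and 135 in dormant and 0, 0 and 3.25 in proliferating cells. Those of *DCN* were 937, 738 and 30.4 in dormant and 0, 2.16 and 3.25 in proliferating cells. *APOE* had 466, 774 and 254 in dormant and 2.90, 0 and 0 in proliferating cells. *DCN* and *APOE* shared the low dormant replicate 3 with *ACKR3*, *APOE* also its order of the dormant libraries, while *RF00425* was highest in dormant replicate 1. *BGN* had 4528, 7595 and 4622 in dormant cells and between 9.75 and 14.5 in proliferating cells.

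**Figure D3:**
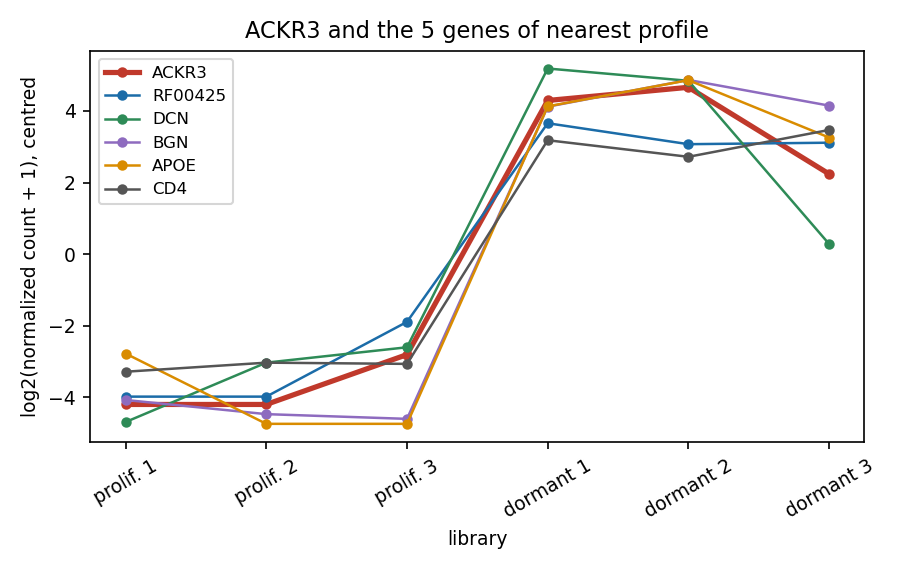
Log2(normalized count + 1), centred on each gene's mean over the 6 libraries (vertical axis), for *ACKR3* (thick red line) and the 5 listed genes nearest to it, by library (horizontal axis). All 6 genes lie below their mean in the proliferating and above it in the dormant libraries, and *ACKR3* and *DCN* drop in dormant replicate 3.

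Genes of the ACKR3 ligand and receptor system were sparse in the table. Of 74 chemokine and chemokine receptor genes counted in RefSeq (GRCh38.p14), 3 were listed: *ACKR3* and the chemokines *CXCL1* and *CXCL8*. Of 26 genes named for their link to ACKR3 (ligands, receptors that share them, beta-arrestins, receptor kinases and parts of the adrenomedullin receptor family), *CD74* and *RAMP1* were listed. The ligands *CXCL12* and *CXCL11*, the receptors *CXCR4* and *CXCR3* and the beta-arrestins *ARRB1* and *ARRB2* were absent from the list and are not analysed here. By the quasi-likelihood test of edgeR, with p-values adjusted over the listed genes by the Benjamini-Hochberg method, both chemokines passed a threshold of 0.05 as higher and both other genes as lower in dormant cells. Since the table holds genes that the authors had called on these libraries, 99.7% of all its genes passed (49.6% as higher and 50% as lower in dormant cells), and the 4 calls are no more than this background. Adjusted over 20000 genes, of which the listed were taken to have the smallest p-values, 0.258% of the listed genes passed and 0 of the 4 did, although all 4 had an unadjusted p under 0.05 and passed in DESeq2 and limma when adjusted over the listed genes.

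*CXCL1* and *CXCL8* encode chemokines that draw neutrophils through CXCR2 and are not ligands of ACKR3. The normalized read counts of *CXCL1* were 1805, 2468 and 3245 in dormant and 1181, 587 and 792 in proliferating replicates 1, 2 and 3. The populations did not overlap for *CXCL1*, which rose with a log2 fold change of 1.55 (SE 0.36, edgeR adjusted p = 0.0065, and 0.112 over 20000 genes). *CXCL8* had 4161, 2540 and 3382 in dormant and 1519, 2029 and 1324 in proliferating cells. *CXCL8* rose with a log2 fold change of 1.05 (SE 0.28, edgeR adjusted p = 0.00888, and 0.153 over 20000 genes). With size factors recomputed from the listed genes alone, which moved the median log2 fold change of all listed genes by -0.58, that of *CXCL8* was 0.47 and it no longer passed. Per kilobase of exon, the dormant mean was 1840 normalized counts for *CXCL1* and 1299 for *CXCL8*, against 146 for *ACKR3*.

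*CD74* encodes the invariant chain of MHC class II, which is also a surface receptor of MIF, and *RAMP1* the accessory protein that turns the calcitonin receptor-like receptor into a receptor of calcitonin gene-related peptide. The normalized read counts of *CD74* were 33296, 44148 and 40692 in dormant and 73404, 49796 and 106366 in proliferating cells. On the log2 scale *CD74* fell by 0.96 (SE 0.26, edgeR adjusted p = 0.00945, and 0.163 over 20000 genes). *RAMP1* had 1201, 1404 and 1514 in dormant and 2873, 2604 and 6493 in proliferating cells. On the log2 scale *RAMP1* fell by 1.54 (SE 0.38, edgeR adjusted p = 0.00715, and 0.123 over 20000 genes), with the highest value in proliferating replicate 3. For all 4 genes the populations did not overlap, which is the background of the table, where 99.2% of the genes did not. With size factors from the listed genes alone, the log2 fold changes of *CXCL1*, *CD74* and *RAMP1* were 0.95, -1.55 and -2.15. *ACKR3* differed from them in that it was at or near 0 in the proliferating population, where each of these genes had at least 544 counts in every library.

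**Figure D4:**
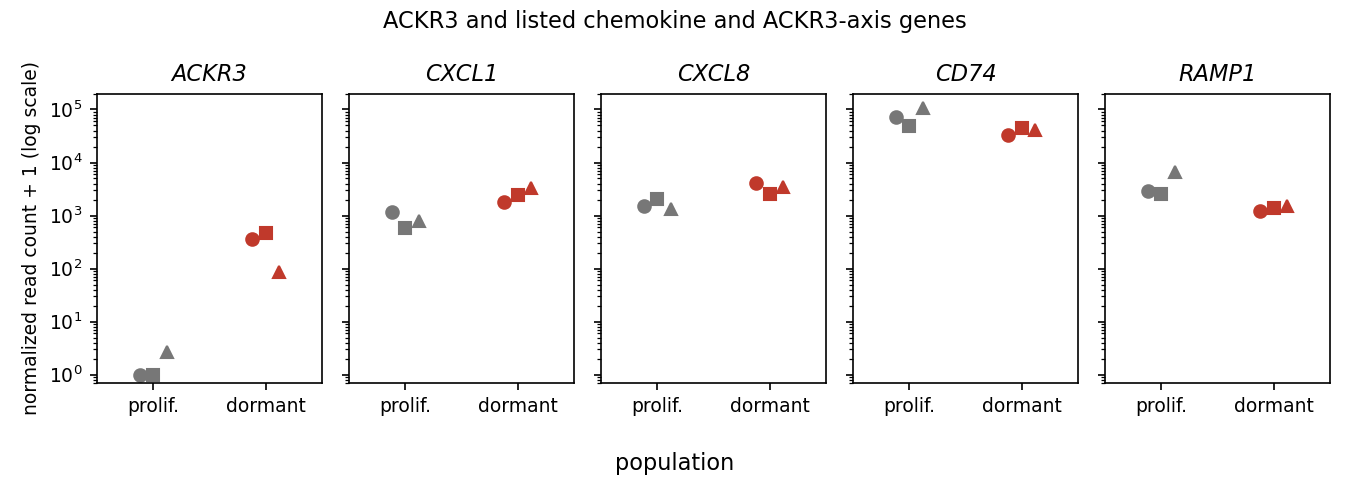
Normalized read count + 1 on a log scale (vertical axis) of *ACKR3*, *CXCL1*, *CXCL8*, *CD74* and *RAMP1* in proliferating (grey) and dormant (red) libraries, with circles for replicate 1, squares for replicate 2 and triangles for replicate 3. *ACKR3* spans from 0 in proliferating to 463 in dormant libraries, and none of the other 4 genes is at 0 in any library.

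*RAMP1* is also a neighbour of *ACKR3*. Within 2 Mb of the start of *ACKR3*, where the annotation has 25 protein-coding genes, *RAMP1* and *ASB1*, a SOCS box protein gene, were the other listed genes, 1.29 and 1.86 Mb away on the same strand. *ASB1* was higher in dormant cells, with normalized read counts of 3602, 2462 and 6564 against 1650, 1447 and 1446 in proliferating cells, a log2 fold change of 1.47 (SE 0.36, edgeR adjusted p = 0.00706, and 0.122 over 20000 genes). The listed neighbours thus moved in opposite directions, and neither was at or near 0 in a population.

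Receptors of the G protein-coupled family, to which ACKR3 belongs by structure, were listed in both directions. Of a list of 96 receptor genes 17 were listed, and of the 16 besides *ACKR3* 7 were higher and 9 lower in dormant cells. Their median log2 fold change was -0.84, against -0.33 over all listed genes. All 16 passed edgeR's test over the listed genes, where 99.7% of all genes did, and 0 passed over 20000 genes, with an unadjusted p under 0.05 for all 16. Among those at least 4-fold different (36.8% of the listed genes were), 5 were higher in dormant cells. *GRM3*, a metabotropic glutamate receptor, had normalized read counts of 496, 1231 and 1815 in dormant and 8.70, 79.8 and 69.9 in proliferating cells, a log2 fold change of 4.49 (SE 0.94). *LPAR6* for lysophosphatidic acid, *LGR6* for R-spondins, *FZD2* for Wnt proteins and *S1PR2* for sphingosine 1-phosphate had log2 fold changes of 2.47, 2.37, 2.26 and 2.24. With size factors from the listed genes alone these were 1.87, 1.82, 1.60 and 1.60, each under 4-fold, and that of *GRM3* was 3.83. Single libraries also decided their size, since the log2 fold change was 1.67 for *LGR6* without dormant replicate 2, and 1.36 for *FZD2* and 1.57 for *S1PR2* without dormant replicate 3. Unlike *ACKR3*, each of these 5 had 12 or more counts in every proliferating library. The call of *FZD2* was lost without proliferating replicate 3, where its log2 fold change was 2.10 (edgeR adjusted p = 0.0508).

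A near absence from one population was seen for other receptors in the opposite direction. *ADGRE1*, a receptor known from macrophages, had counts of 370, 104 and 49 in proliferating and 0, 0 and 0 in dormant libraries, so that it was at least 139-fold lower in dormant cells. *ADRA1B*, an adrenergic receptor, had no counts in dormant cells either and was at least 60.0-fold lower, both against 3 counts over the dormant group. *HTR7*, a serotonin receptor, had 0, 2 and 0 counts in dormant and 229, 596 and 143 in proliferating cells, a ratio of 385 with a counting interval from 106 to 3187. *EDNRB*, an endothelin receptor, had 1, 0 and 1 counts in dormant and 349, 140 and 172 in proliferating cells, a ratio of 263 with an interval from 72.6 to 2178. *P2RY6*, a receptor of UDP, had 0, 0 and 4 counts in dormant cells and *LGR4*, for R-spondins, had 8, 16 and 0, and both were at least 54 in every proliferating library. Of the 16 receptors, 4 had at most 3 counts in every dormant library (12.1% of the listed genes did) and 0 had at most 3 in every proliferating library (1.03% did), which *ACKR3* had. Per kilobase of exon, *ACKR3* was at rank 11 of the 17 in dormant cells, just below *GRM3* with 264 and above the 6 receptors that were at least 4-fold lower there. The level of *F2RL1*, a protease-activated receptor at rank 1, was 2024 per kilobase.

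**Figure D5:**
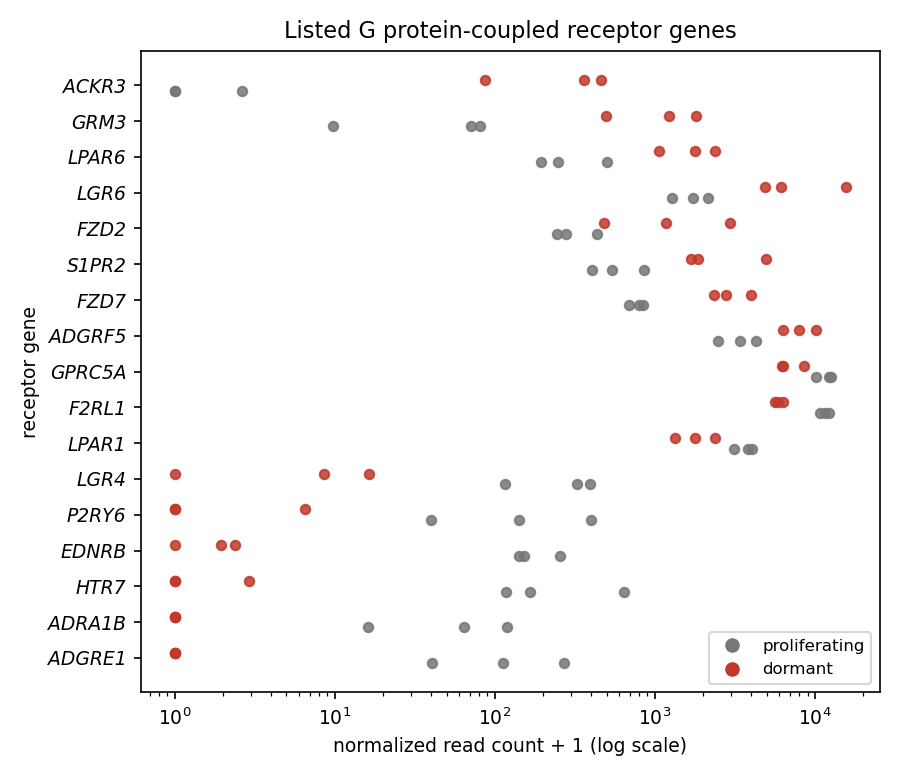
Normalized read count + 1 on a log scale (horizontal axis) of the 17 listed G protein-coupled receptor genes (vertical axis), ordered by log2 fold change, with 1 point per library, grey for proliferating and red for dormant. *ACKR3* is at the top with grey points at 0, 0 and 1.63, and *ADRA1B* and *ADGRE1* at the bottom have all dormant libraries at 0.

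Like *ACKR3*, the listed markers of several other cell types were mostly higher in dormant cells, while those of neurons and macrophages were mostly lower. The part of such cells in the level of *ACKR3* was not tested. Of the listed astrocyte markers 5 of 6 were higher in dormant cells, of the fibroblast markers 8 of 8, of the mural cell markers 3 of 3, of the endothelial markers 3 of 4 and of the mast cell markers 3 of 4, with *CLDN11* the single oligodendrocyte marker listed and also higher. Over all listed genes, 49.6% passed as higher and 50% as lower in dormant cells. The full lists held 15 astrocyte, 11 fibroblast, 11 mural, 16 endothelial, 8 mast cell and 10 oligodendrocyte markers. Those of microglia and macrophages held 16 and those of neurons 11, and members outside the table were not analysed. The microglia and macrophage markers were 2 higher and 5 lower, and the neuron markers 0 higher and 3 lower. *GRIN2B* and *RIMS3* of the neuron list, *ADGRE1* of the macrophage list and *LTC4S* of the mast cell list had no counts in any dormant library. All 7 listed markers of MDA-MB-231 and cancer cells were lower in dormant cells (median log2 fold change -0.75), and their summed normalized read count was between 307298 and 361190 in dormant and between 525211 and 600533 in proliferating libraries. The summed astrocyte markers, of which *SLC1A3*, a glutamate transporter, and *SPARCL1*, a secreted matrix protein, had the highest normalized read counts, were 4503, 8561 and 11033 in dormant replicates 1, 2 and 3 and between 638 and 1586 in proliferating libraries. The summed fibroblast markers, led by the collagens *COL3A1* and *COL1A1*, were 50913, 82193 and 82948 in dormant and between 4730 and 8800 in proliferating libraries. The endothelial sum, led by *ADGRF5* and *PALD1*, was 7977, 14363 and 10613 in dormant and between 3322 and 5165 in proliferating libraries. The mural sum, led by *PDGFRB* and *NOTCH3*, was 2927, 4924 and 5799 in dormant and between 280 and 469 in proliferating libraries. The mast cell sum, led by the tryptases *TPSB2* and *TPSAB1*, was 207, 108 and 1163 in dormant and between 30.9 and 94.2 in proliferating libraries. The summed macrophage list, led by *CD74* and *LAPTM5*, was between 41490 and 52229 in dormant and between 61410 and 121280 in proliferating libraries. *CD74* made up most of it, with between 33296 and 44148 in dormant and between 49796 and 106366 in proliferating libraries. The neuron sum, led by *SNAP91* and *GRIN2B*, was between 1.90 and 5.53 in dormant and between 661 and 1046 in proliferating libraries, and *CLDN11* was between 1351 and 3357 in dormant and between 74.8 and 188 in proliferating libraries. The cancer cell sum was 354536, 361190 and 307298 in dormant replicates 1, 2 and 3. In replicate 3, where the sum was lowest, *KRT8* of that list was also lowest, at 62447, and *PLAU* of that list was highest, at 75482. *ACKR3* was at 0.209 times the mean of replicates 1 and 2 there, a much deeper drop than that of the sum. The 6 sums of astrocyte, fibroblast, endothelial, mural, mast cell and macrophage markers were not lowest in dormant replicate 3. Whether *ACKR3* follows any of these sums was not tested. By single genes, 4 of the 7 cancer cell markers were lowest in dormant replicate 3 alone. So were 1 of 6 astrocyte markers (*APOE*), 1 of 8 fibroblast markers (*DCN*), 1 of 7 macrophage markers (*LAPTM5*) and none of the endothelial, mural or mast cell markers. Among the 576 listed genes higher in dormant cells, 11.6% were lowest there. The cancer cell markers were all lower in dormant cells, and the share among such genes was not computed. The 11.6% is therefore no background for their 4 of 7, and no excess can be read from it. Of all these markers *SPARCL1*, *BGN* and *CD4* passed over 20000 genes. *GFAP* and *AQP4*, defining markers of astrocytes, and *PECAM1* and *CDH5* of endothelium were not in the table and are not analysed here.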

How the data were processed

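MDA-MB-231 cells were sorted from mouse brains, and Smart-seq2 libraries were made from 3 dormant and 3 proliferating populations. The authors aligned reads with STAR to joined human (GENCODE release 31, GRCh38.p12) and mouse (GRCm38.p6) assemblies, counted genes in Rsubread, where reads with several alignments were kept, and set aside whatever aligned to mouse. The deposited estimated counts are not normalized, and 43.2% to 49.6% of them per library are fractional. The deposited normalized read counts are signal values, rounded counts divided by a DESeq2 size factor per library (0.724 to 1.38), and were recomputed to within 5.04e-05. The authors' fold changes, standard errors, test statistics and p-values in the table were not used. The table appears to hold only genes that the authors called, so a test over it describes selected genes.

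Counts were rounded and tested with edgeR 4.0.16 in R 4.3.3 (quasi-likelihood, two-sided, deposited size factors, all 6 libraries, population as the only term, no filter on low counts), with Benjamini-Hochberg adjustment over the 1161 genes and a threshold of 0.05. The alternatives were DESeq2 1.42.0, limma 3.58.1 on log2(normalized count + 1) or + 0.5, TMM and median-ratio scaling, filterByExpr, adjustment over 20000 genes, a replicate block and leaving out each library. The steps were also run on simulated counts in which most genes did not differ. Nearly all listed genes differ here, so that run does not show how the steps perform on them. Same-numbered libraries come from the same experiment and pool of mice. The correlations of their deviations from the population means over genes were 0.0567, -0.0183 and 0.00125 for replicates 1, 2 and 3.

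*ACKR3* and all lists were chosen with earlier results of these data known. The genes named are *ACKR3*, the listed genes of the chemokine and ACKR3 lists, listed receptors with at least a 4-fold difference, the 5 nearest profiles, listed genes within 2 Mb and the 2 most abundant listed genes of each marker list. A gene of the astrocyte list is not reported here and was left out of its counts and sums. *CYTIP*, *LRRFIP1P1*, *TCF4*, *LTC4S*, *RIMS3*, *F2RL1* and the genes of the on and off pattern were named after their values were seen. Intervals are exact (Poisson, or Clopper-Pearson for ratios) at 95%. Exon lengths and coordinates are from GENCODE release 44, matched by Ensembl identifier for 1157 genes. Python 3.11.15, numpy 2.4.6, pandas 2.3.3, scipy 1.17.1 and matplotlib 3.10.9 were used.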

Additional observations from a re-analysis of the deposited data

How the results depend on the processing

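Of 210 log2 fold changes of the 15 named chemokine, ACKR3-linked and receptor genes under the alternatives, 193 kept their direction and their side of the threshold, 17 kept the direction and lost the call, and 0 reversed. Since these genes were listed for a difference in the same libraries, a reversal was unlikely beforehand. Adjustment over 20000 genes, which holds 15 of the lost calls, leaves every log2 fold change as it was. The number of genes past the threshold, 1157, was 3 with adjustment over 20000 genes, and the 4 chemokine and ACKR3-linked genes and the 16 receptors past it were 0 and 0. The unadjusted p-value was under 0.05 for 1157 genes, DESeq2 passed 1161 and limma 1158 over the listed genes, and only the number of genes adjusted over differs in that alternative. With each library left out in turn, between 1089 and 1135 genes passed, with all 4 and between 15 and 16 of those lists. With the replicate block 1097 genes passed, 544 higher and 553 lower, and it changed no call of those 15 genes but ended that of *CYTIP*, whose edgeR adjusted p went from 0.0153 to 0.0756. With median-ratio scaling 931 passed, 346 higher and 585 lower against 576 and 581 as reported, with 3 of the 4 and 15 of the 16. The ratio of *ACKR3* was between 390 and 713 with other scalings, and between 251, against a floor of 3 counts, and 726 with a library left out. The 2 counts of *ACKR3* in the proliferating libraries limit the precision of its ratio.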

Other observations

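An on and off pattern like that of *ACKR3*, with at most 2 counts in every proliferating library and at least 50 in every dormant library, was found in 5 of the 1161 listed genes. Both limits were set after the values were seen. Besides *ACKR3* these were *PDE1A*, a cyclic nucleotide phosphodiesterase with 72, 1053 and 1638 counts in dormant replicates 1, 2 and 3, *FMO2*, a flavin-containing monooxygenase with 395, 350 and 706, *PPP1R14A*, a smooth muscle phosphatase inhibitor with 50, 68 and 251, and the noncoding gene *AC022537.1* with 100, 50 and 311. The other 4 genes were highest in dormant replicate 3, where *ACKR3* was lowest with 62 counts.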
